A study of Mus musculus with 18 samples.

Results

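The nuclear genes of the mitochondrial respiratory chain were examined in MC38 tumours, where the RNA of many of them was lower after a MEK inhibitor and an agonist antibody to CD40 were given together than in control tumours. The genes were those whose symbol begins with Ndufa, Ndufb, Ndufc, Ndufs or Ndufv (complex I), Sdha to Sdhd (complex II), Uqcr (complex III), Cox4 to Cox8 (complex IV) or Atp5 (complex V, the ATP synthase). Of the 18193 genes with a probe set of their own on the array, 94 met this rule: 44 of complex I, 8 of complex II, 8 of complex III, 17 of complex IV and 17 of complex V. A gene with several probe sets (53 of the 94) was represented by the brightest over all 18 arrays, and sets marked as prone to cross-hybridise were passed over where another existed. By role, 19 genes encode core subunits, 53 accessory subunits, 12 assembly factors (Ndufaf and Sdhaf genes), 7 isoforms typical of particular tissues and 3 were set apart as others (Ndufa4, Ndufa4l2 and Cox7a2l). Cox7b was not analysed here, and 8 further genes with these prefixes, among them Ndufs6 and Ndufa11, shared every probe set with another symbol.

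MC38 is a mouse colon carcinoma cell line. Its cells were injected subcutaneously into C57BL/6-Ly5.1 mice aged 6 to 12 weeks, and tumours were taken on day 22, each from a different mouse, with RNA isolated from a piece of the tumour. Control tumours (n = 5) came from mice given the drug vehicle and a control antibody, anti-CD40 tumours (n = 4) from mice given vehicle and the agonist antibody, MEKi tumours (n = 5) from mice given the MEK inhibitor GDC-0623 daily at 30 mg/kg with the control antibody, and MEKi/CD40 tumours (n = 4) from mice given inhibitor and agonist antibody together. Antibodies were injected on days 3, 5 and 7 of treatment and again on the day before collection. The comparisons ask how each agent and their combination changed the RNA of the tumour. All values are log2 signals from 1-colour Affymetrix arrays, so a difference of 1 is a doubling, and levels were compared between tumours for the same gene and never between genes.

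The respiratory chain lies in the inner mitochondrial membrane. Complex I takes electrons from NADH and complex II takes them from succinate, complex III passes them to cytochrome c, and complex IV hands them to oxygen. Complexes I, III and IV pump protons while doing so, and complex V uses the returning protons to make ATP. Most subunits are encoded in the nucleus and a few in mitochondrial DNA, which makes the chain a product of both genomes, and transcription factors such as NRF1, GABPA (an ETS factor), YY1 and ESRRA are known to act on promoters of the nuclear genes. Core subunits carry the catalytic chemistry or the central proton path, accessory subunits surround and stabilise them, and assembly factors help to build a complex without remaining in it.

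The 18 arrays were alike (correlation of 0.987 to 0.998 within groups), but the tumours differed in tissue content. Such RNA mixes carcinoma, stroma and immune cells, and in it fewer cells of a type and less RNA per cell cannot be told apart. The epithelial keratin and adhesion genes Krt8, Krt18 and Epcam lay below 3 in every tumour, so these defining markers of a carcinoma were not detected. Cdh1 was 6.15 to 6.89 in control, 6.08 to 6.65 in anti-CD40, 4.60 to 6.25 in MEKi and 4.35 to 5.61 in MEKi/CD40 tumours. Of the 7 epithelial markers listed, only Cdh1 was called lower in MEKi/CD40 than in control tumours (log2 difference -1.20). The mean log2 value of 9 adipocyte markers was 3.75 ± 0.30 (SD) in control, 4.27 ± 1.36 in anti-CD40, 4.96 ± 0.65 in MEKi and 7.20 ± 3.09 in MEKi/CD40 tumours, with the top values in MEKi/CD40 2 (11.41), MEKi/CD40 4 (7.40) and anti-CD40 3 (6.25). Muscle markers stood out in MEKi/CD40 4 alone (7.86, against 2.87 to 3.44 elsewhere). All 8 fibroblast markers were higher in MEKi/CD40 than in control tumours, with a mean log2 value of 13.73 to 13.94 against 11.24 to 11.78, and in MEKi tumours it was 12.73 to 13.47. All 9 measured proliferation genes were lower in MEKi/CD40 tumours (median log2 difference -1.22), with a mean of 9.87 to 10.81 against 11.38 to 11.77, and 8 of them in MEKi tumours. The mean of 10 macrophage markers was 11.68 to 12.12 in control, 11.46 to 11.96 in anti-CD40, 10.74 to 11.66 in MEKi and 11.28 to 12.44 in MEKi/CD40 tumours, with 4 called lower in MEKi and 1, Csf1r, in MEKi/CD40 tumours. The mean of 6 T cell markers was 5.13 to 6.37, 6.03 to 7.19, 5.47 to 6.56 and 5.66 to 6.99 in the same order, with none called. The sample titles also carry a low and a high number series of unstated meaning, with 2 low and 3 high tumours in control and in MEKi and only low ones in the anti-CD40 and MEKi/CD40 groups. The part of carcinoma cells, fat, stroma, immune cells, proliferation and the number series in the results was not tested beyond the values given with them.

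In MEKi/CD40 tumours 38 of the 94 respiratory chain genes were lower than in control tumours and 3 were higher (limma, adjusted p under 0.05). Over all probe sets tested, 14.9% were called in this comparison, 9.37% lower and 5.5% higher. Because respiratory chain genes are bright, a closer background is the 3545 genes with a mean of at least 10, of which 39.5% were called, 26.4% lower and 13% higher, whereas 32 of the 74 respiratory chain genes as bright as this were lower (43.2%) and 3 were higher. The median log2 difference was -0.21 over the 94 genes and -0.07 over the bright genes of the array. The called differences ran from -0.85 for Ndufaf6 to 0.53 for Ndufa1 on the log2 scale. In 34 of the 38 lower genes every MEKi/CD40 tumour lay below every control tumour. The 38 were chosen by p in these same tumours, so this describes them and is no further support. It is given without a share over the array. With the series blocked, 25 of the 94 genes were called, and 25 when the 3 tumours with the highest adipocyte scores were left out. With the adipocyte score as a covariate 16 were called, and after cyclic loess scaling 28 were lower and 8 higher. Within the low series, with 2 control against 4 MEKi/CD40 tumours, none was called, and 74 of 94 differences were below 0. All 41 called genes kept their sign in each of these fits. The fits reuse the tumours in which the 41 genes were chosen, so this is no separate support.

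**Figure D1:**
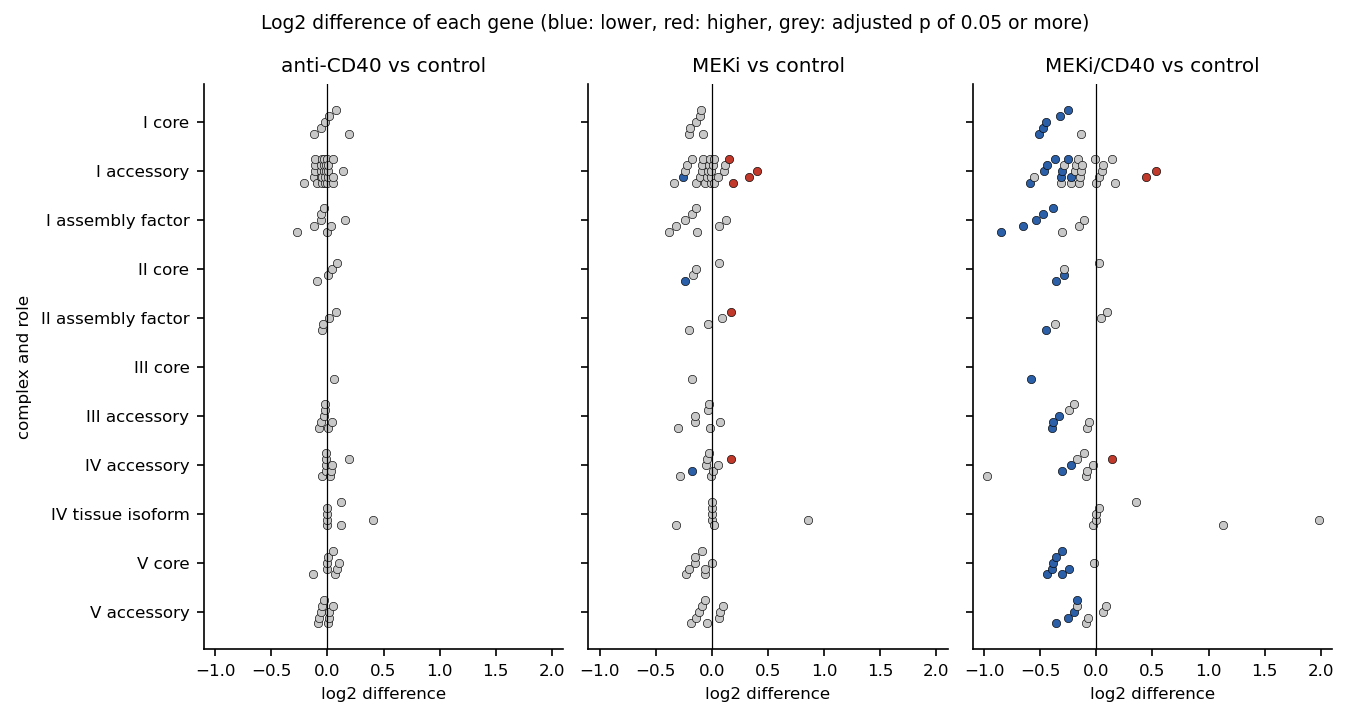
Log2 difference from control (horizontal axis) for the respiratory chain genes, by complex and role (vertical axis), in anti-CD40, MEKi and MEKi/CD40 tumours. Ndufa4, Ndufa4l2 and Cox7a2l are not drawn. Blue points are called lower, red points higher and grey points not called. No point is coloured for anti-CD40, 9 are for MEKi and 41 for MEKi/CD40, of which 38 are blue.

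Each complex was also summarised per tumour by the mean log2 value of its core and accessory subunits, leaving out tissue isoforms, the genes set apart as others and those with a mean under 5, as a description without a test. For complex I (33 genes) it was 12.14 ± 0.05 (SD) in control, 12.11 ± 0.02 in anti-CD40, 12.10 ± 0.07 in MEKi and 11.95 ± 0.07 in MEKi/CD40 tumours. The 4 MEKi/CD40 tumours, at 11.85 to 12.03, all lay below the 5 control tumours, at 12.09 to 12.22. MEKi/CD40 tumours were also below control for complex II (difference -0.23), complex III (-0.29), complex IV (-0.21), complex V (-0.21) and the 12 assembly factors (-0.35). The complex IV value rests in large part on the dim gene Cox7c: without it the difference was -0.11, and with Cox6a2 and Cox7a2l added to the reported genes it was -0.09, both choices made after seeing the data. The differences of MEKi tumours from control were smaller, from -0.04 for complexes I and IV to -0.12 for complex II. Those of anti-CD40 tumours ran from -0.03 to 0.02. Against the low-series controls only, the MEKi/CD40 differences were -0.21, -0.23, -0.31, -0.23 and -0.23 for complexes I to V and -0.37 for the assembly factors. For the 2 low-series MEKi tumours against the same 2 controls they were -0.08, -0.125, -0.15, -0.07 and -0.12, and -0.16 for the assembly factors.

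**Figure D2:**
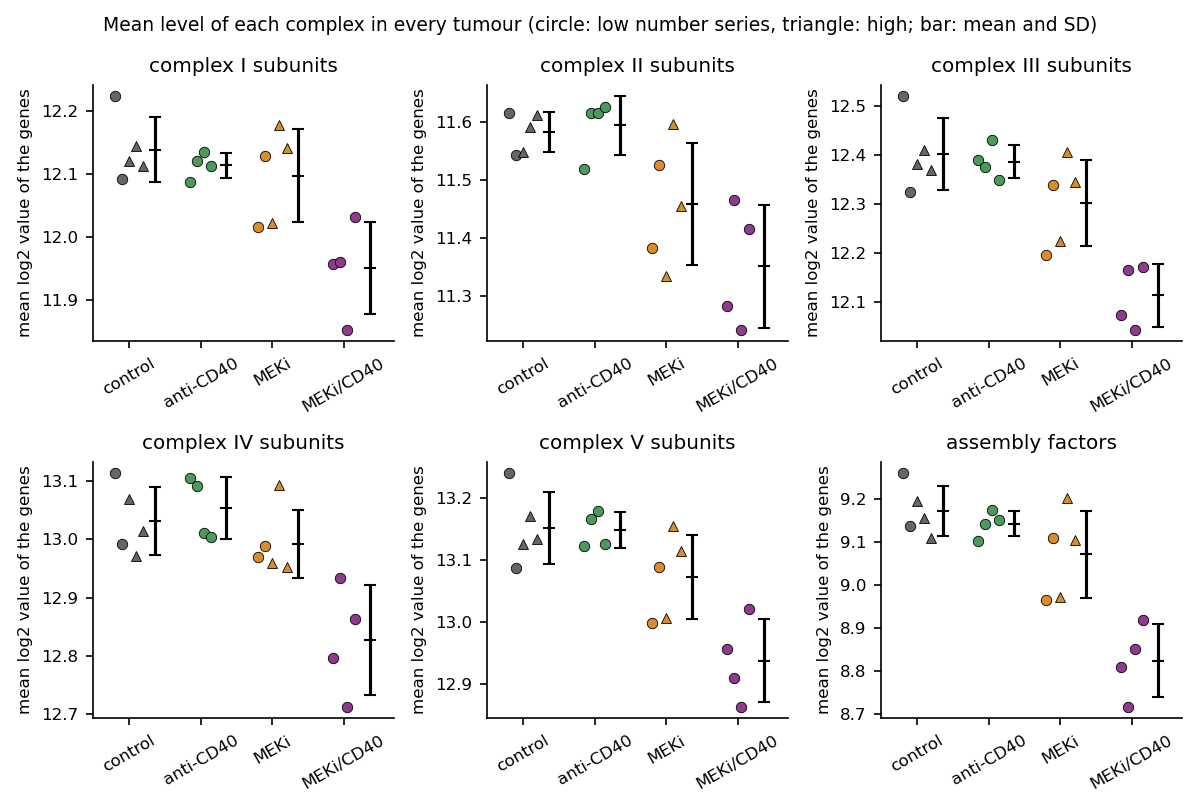
Mean log2 signal of the core and accessory subunits of complexes I to V and of the assembly factors (vertical axes, 1 panel each) in every tumour of the 4 groups (horizontal axis); circles are the low and triangles the high number series, and bars give the group mean and SD. MEKi/CD40 tumours lie lowest on average in each panel, with means of 11.95 for complex I and 8.83 for the assembly factors.

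Most core subunits were lower. Against control, 15 of 19 core genes were lower in MEKi/CD40 tumours (median log2 difference -0.33) and none was higher, beside 17 lower and 3 higher of 53 accessory genes (median -0.18). The difference between the classes was not tested. In complex I, 5 of the 6 measured core genes were lower. Ndufv2, an iron-sulphur subunit of the NADH-oxidising module, had log2 values of 12.46, 12.22, 12.19, 12.36 and 12.18 in the control tumours and 11.75, 11.89, 11.68 and 11.90 in the MEKi/CD40 tumours, so the groups did not overlap. Its log2 difference was -0.48 (SE 0.08, adjusted p = 0.00691), and the signal fell by 28.15%. Ndufs1, the largest iron-sulphur subunit, read 11.03, 10.79, 10.82, 10.79 and 10.70 in control and 10.28, 10.56, 10.26 and 10.42 in MEKi/CD40 tumours, again without overlap (log2 difference -0.45, SE 0.09, adjusted p = 0.0133). The iron-sulphur subunits Ndufs8 and Ndufs7, next to the quinone site, differed by -0.51 and -0.33 (adjusted p = 0.0141 and 0.0105), and Ndufv1, which binds NADH, by -0.25 (adjusted p = 0.0173). Ndufs3, the remaining core gene, was not called (-0.14, adjusted p = 0.0734).

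Among the 28 accessory genes of complex I, 8 were lower and 2 higher in MEKi/CD40 tumours. Ndufb10, a subunit of the membrane arm, read 12.57, 12.25, 12.41, 12.59 and 12.32 in control and 11.83, 11.72, 11.82 and 11.98 in MEKi/CD40 tumours. All 4 lay below the lowest control, with a log2 difference of -0.59 (SE 0.09, adjusted p = 0.00506). Ndufa12 fell by 0.46 on the log2 scale (adjusted p = 0.00372) and Ndufab1, the mitochondrial acyl carrier protein, by 0.44 (adjusted p = 0.00386). The other lower genes were Ndufc2, Ndufa9, Ndufa10, Ndufa5 and Ndufb5, at -0.37 to -0.22. Ndufb8, a subunit often used as a marker of assembled complex I, was not called (-0.19, adjusted p = 0.141). Ndufb4 was at the bottom of the scale on the probe set with its symbol alone, while 2 brighter sets that share its symbol with other genes differed by 0.055 (adjusted p = 0.847) and 0.0025 (adjusted p = 1). The shared set of Ndufs6 and Ndufs6b differed by -0.17 (adjusted p = 0.0112).

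Both of the complex I genes that rose are accessory. Ndufa1, an X-linked subunit of the membrane arm, read 12.64, 12.71, 12.63, 12.68 and 12.83 in control, 13.13, 13.04, 13.14, 12.88 and 12.95 in MEKi and 13.36, 13.40, 13.07 and 13.10 in MEKi/CD40 tumours. Every tumour that received the inhibitor lay above every control. The log2 difference was 0.53 (SE 0.08, adjusted p = 0.0063) for MEKi/CD40 and 0.33 (SE 0.06, adjusted p = 0.0179) for MEKi. Ndufv3, a small subunit beside the NADH-oxidising module, read 12.04, 12.04, 11.89, 12.15 and 12.15 in control, 12.55, 12.39, 12.65, 12.25 and 12.46 in MEKi and 12.58, 12.54, 12.29 and 12.56 in MEKi/CD40 tumours. It too did not overlap with control in either treated group, and rose by 0.44 (SE 0.08, adjusted p = 0.0105) and 0.41 (SE 0.08, adjusted p = 0.0239). When the series was blocked, Ndufa1 was called in MEKi/CD40 tumours (0.56, adjusted p = 0.0364) and Ndufv3 was not (0.45, adjusted p = 0.0567).

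Assembly factors of complex I held the largest fall among the called genes. Ndufaf6, needed early in the building of complex I, read 8.61, 8.18, 8.27, 8.01 and 8.16 in control and 7.25, 7.12, 7.78 and 7.45 in MEKi/CD40 tumours. These groups did not overlap, and the log2 difference was -0.85 (SE 0.17, adjusted p = 0.0146), so that the signal fell by 44.4%. Ndufaf2, a chaperone of late assembly, read 9.98, 9.89, 10.13, 9.85 and 9.72 in control and 9.07, 9.13, 9.45 and 9.40 in MEKi/CD40 tumours (log2 difference -0.65, SE 0.11, adjusted p = 0.00869). Ndufaf7 and Ndufaf5, enzymes that modify arginines of core subunits, differed by -0.53 and -0.48 (adjusted p = 0.00957 and 0.00634), and Ndufaf4 by -0.39 (adjusted p = 0.0435). A dimmer probe set of Ndufaf4 was not called (-0.20, adjusted p = 0.576). Ndufaf1, Ndufaf3 and Ndufaf8 were not called (-0.31, -0.11 and -0.16).

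In complex II, which is also the succinate dehydrogenase of the citric acid cycle, Sdhd and Sdhb were lower and Sdha and Sdhc were not called. Sdhd, a membrane anchor, read 11.39, 11.20, 11.28, 11.48 and 11.36 in control, 11.05, 11.17, 11.00, 11.14 and 11.14 in MEKi and 10.97, 11.01, 10.97 and 10.97 in MEKi/CD40 tumours. All tumours that received the inhibitor were below the lowest control, by -0.24 (SE 0.06, adjusted p = 0.0382) for MEKi and -0.36 (SE 0.05, adjusted p = 0.00507) for MEKi/CD40 on the log2 scale. A dimmer probe set of Sdhd was not called (-0.17, adjusted p = 0.105). Sdhb, the iron-sulphur subunit, differed by -0.29 in MEKi/CD40 tumours (SE 0.06, adjusted p = 0.0159). Sdha, the flavoprotein, differed by the same amount with a wider spread (-0.29, SE 0.10, adjusted p = 0.113), and the other anchor Sdhc by 0.02 (adjusted p = 1). Of the 4 assembly factors only Sdhaf3, which serves the iron-sulphur subunit, was lower. Its values were 8.63, 8.51, 8.59, 8.71 and 8.58 in control, 8.55, 8.52, 8.50 and 8.68 in anti-CD40, 8.54, 8.55, 8.55, 8.67 and 8.53 in MEKi and 8.26, 8.18, 7.91 and 8.26 in MEKi/CD40 tumours. The MEKi/CD40 tumours stood below all others, and the log2 difference from control was -0.45 (SE 0.08, adjusted p = 0.00995).

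All 8 complex III genes had differences below 0 in MEKi/CD40 tumours, and 4 were called lower. Uqcrfs1 encodes the Rieske iron-sulphur protein, the only catalytic subunit of complex III among the 8, and lies at chr13:30540312-30545316 (GRCm38.p6). Its values were 11.89, 11.63, 11.71, 11.83 and 11.68 in control and 11.00, 11.45, 11.07 and 11.14 in MEKi/CD40 tumours. The groups did not overlap, the log2 difference was -0.58 (SE 0.10, adjusted p = 0.00904), and the signal fell by 33.2%. Without the 3 tumours of highest adipocyte score it was -0.71 (adjusted p = 0.0124), and with the series blocked it was -0.60 and not called (adjusted p = 0.0522). Uqcrc2 and Uqcrc1, the large subunits on the matrix side, differed by -0.40 (adjusted p = 0.00491) and -0.39 (adjusted p = 0.0178), and the small subunit Uqcr10 by -0.33 (adjusted p = 0.00855). Uqcrh, Uqcr11, Uqcrb and Uqcrq were not called, with values from -0.25 to -0.06. A dimmer probe set of Uqcrb was lower (-0.28, adjusted p = 0.0194) where its brightest set was not (-0.08).

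Complex IV had the smallest share of lower genes: 2 of its 17 genes were lower and 1 was higher in MEKi/CD40 tumours, and the median log2 difference was -0.03. These counts include 7 tissue isoforms. Among its 9 accessory genes 2 were lower (22.2%), with a median of -0.11. Of its 7 tissue isoforms, Cox4i2, Cox6b2, Cox7b2 and Cox8c stayed below 3 on every array. Cox5a, a subunit on the matrix side, read 14.18, 14.24, 14.27, 14.21 and 14.16 in control, 13.96, 14.11, 13.99, 14.09 and 14.04 in MEKi and 13.77, 14.02, 13.87 and 13.95 in MEKi/CD40 tumours. No tumour that received the inhibitor reached the control range, and the log2 differences were -0.17 (SE 0.03, adjusted p = 0.022) for MEKi and -0.31 (SE 0.05, adjusted p = 0.00766) for MEKi/CD40. Cox8a, a small membrane subunit, was the other lower gene, and its values follow with the drug interaction. Cox4i1, the ubiquitous form of subunit 4, differed by -0.09 (adjusted p = 0.194), Cox5b by -0.18 (adjusted p = 0.0683) and Cox7a2 by -0.08 (adjusted p = 0.0507). Cox6b1 was not called either (-0.11, adjusted p = 0.133), but a dimmer set of it was lower (-0.17, adjusted p = 0.0354). Another Cox5b set was also lower (-0.24, adjusted p = 0.0101), while further sets were not (adjusted p = 0.369 and 0.153). Cox6a1, the ubiquitous form of subunit 6a, read 14.91, 14.84, 14.82, 14.81 and 14.90 in control, 15.08, 14.99, 14.97, 15.07 and 15.00 in MEKi and 14.98, 15.06, 14.92 and 15.02 in MEKi/CD40 tumours. The groups that received the inhibitor lay above control, by 0.17 (SE 0.03, adjusted p = 0.0165) and 0.14 (SE 0.03, adjusted p = 0.0344), but a dimmer Cox6a1 probe set was not called in MEKi/CD40 tumours (0.11, adjusted p = 0.225). Nor was the brightest set with the series blocked (0.12, adjusted p = 0.202). Cox7c was represented by a dim set (mean 7.29, difference -0.97, adjusted p = 0.0592), and another of its sets was lower (-1.54, adjusted p = 0.0222). Ndufa4, which carries a complex I name but is associated with complex IV, differed by -0.38 (adjusted p = 0.223), and Cox7a2l, a factor that links complexes III and IV, by -0.26 (adjusted p = 0.11).

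The ATP synthase was the complex with the largest share of lower genes, 11 of 17, and none was higher. In its catalytic head, the beta chain Atp5b, which holds the active site, read 14.59, 14.42, 14.49, 14.60 and 14.51 in control and 14.21, 14.23, 14.16 and 14.26 in MEKi/CD40 tumours. The groups did not overlap, and the log2 difference of -0.31 (SE 0.04, adjusted p = 0.00358) was the smallest p among the 94 genes. The alpha chain Atp5a1 read 13.63, 13.34, 13.42, 13.59 and 13.48 in control and 13.09, 13.01, 13.17 and 13.14 in MEKi/CD40 tumours (log2 difference -0.39, SE 0.07, adjusted p = 0.0086). The gamma and delta chains Atp5c1 and Atp5d of the central stalk differed by -0.25 (adjusted p = 0.01) and -0.39 (adjusted p = 0.0265), and Atp5e, the epsilon chain, was not called (-0.02, adjusted p = 1). Dimmer probe sets of Atp5c1 (-0.49, adjusted p = 0.231) and Atp5d (-0.25, adjusted p = 0.143) were not called. Atp5g1, Atp5g2 and Atp5g3 encode the same mature c subunit, which forms the membrane ring, and fell by 0.44, 0.36 and 0.31 on the log2 scale (adjusted p = 0.0148, 0.04 and 0.00977). Of the accessory genes, Atp5o, at the top of the peripheral stalk, differed by -0.36 (adjusted p = 0.00495), and Atp5l, Atp5pb and Atp5j were lower too (adjusted p = 0.0298, 0.0241 and 0.0465). The small membrane subunits Atp5k and Atp5j2 had values above 0 (0.06 and 0.08) and were not called.

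**Figure D3:**
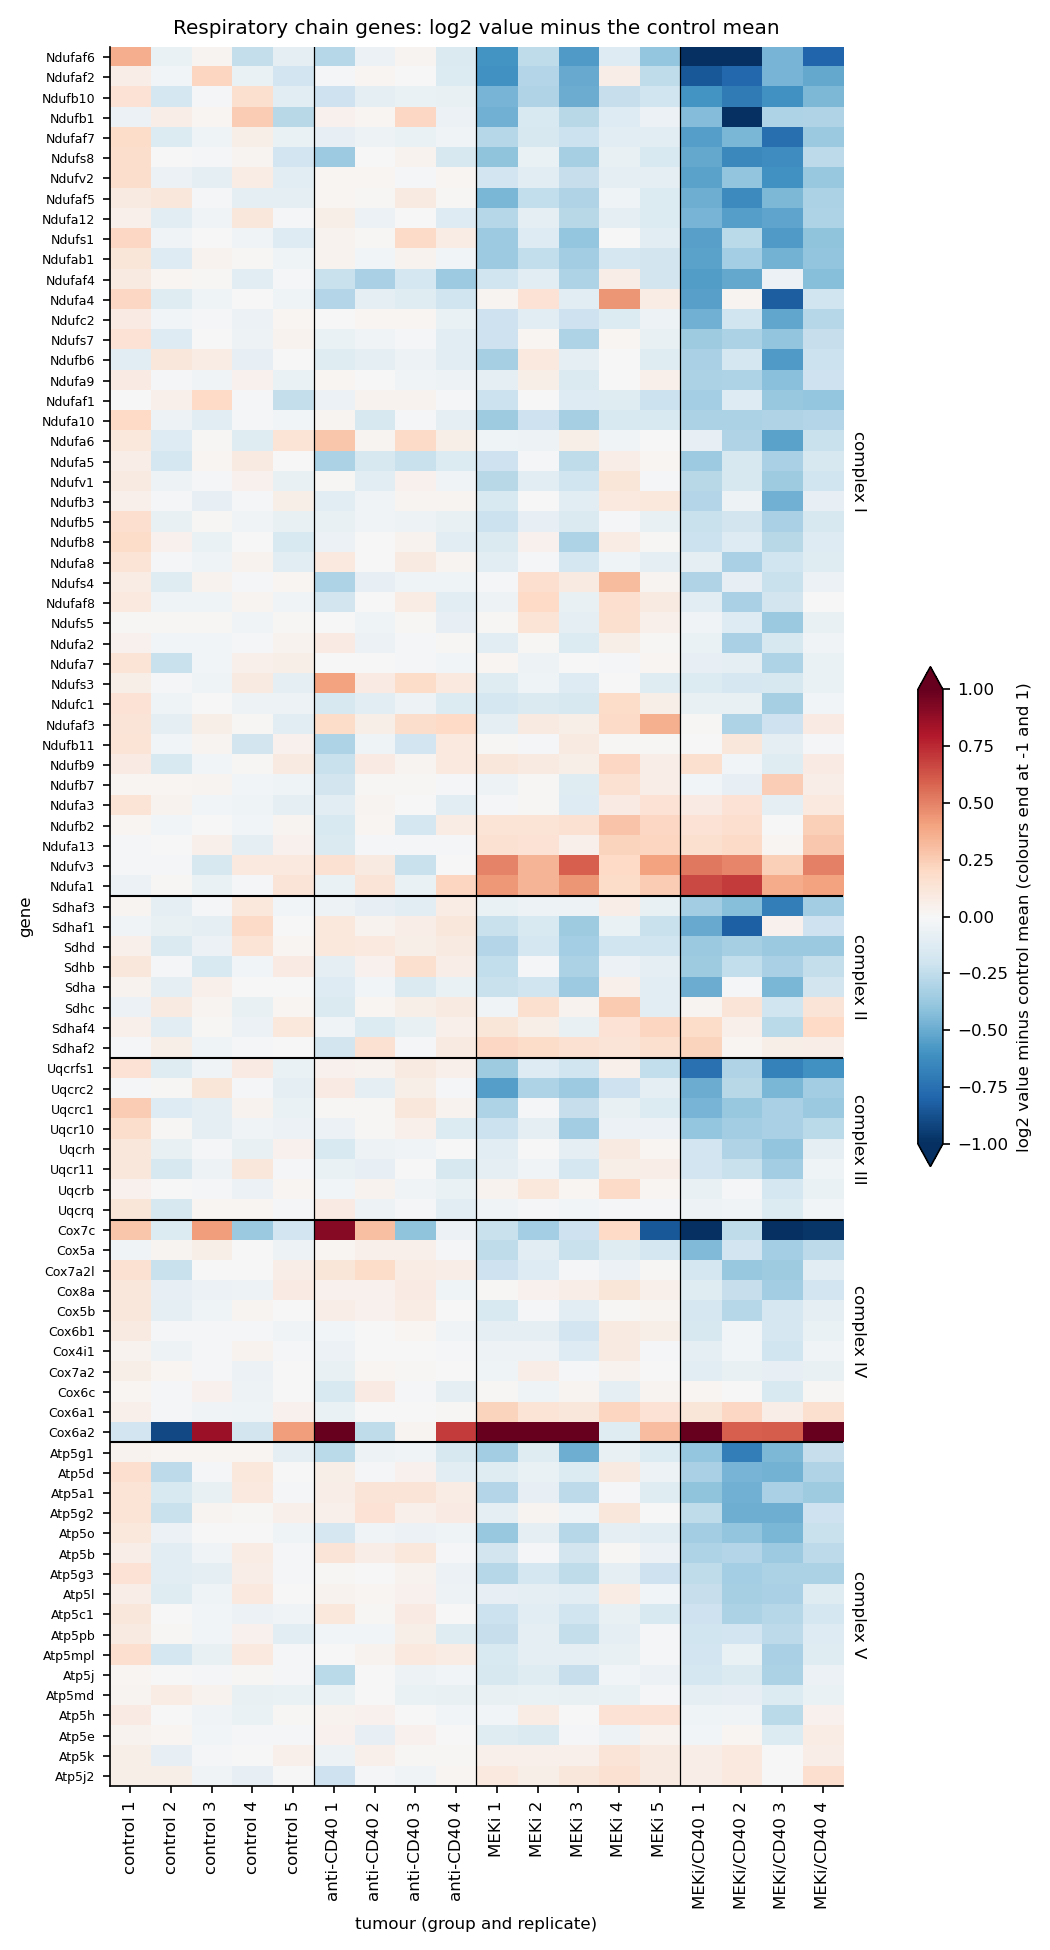
Log2 signal minus the control mean for the 86 respiratory chain genes with a mean of at least 5 (rows, by complex) in the 18 tumours (columns, by group); blue is below and red above the control mean, and the colours end at -1 and 1. Blue prevails in the 4 MEKi/CD40 columns, and Ndufa1 and Ndufv3 are red in the MEKi and MEKi/CD40 columns.

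In the main fits, fewer of these genes were called with either agent alone than with the combination. Such counts do not compare MEKi with the combination, and the direct comparison follows below. Anti-CD40 alone called none of the 94 against control (limma, with 8 at an unadjusted p under 0.05), in a comparison that called 0% of all probe sets, and the median difference was -0.01. MEKi alone called 9 of the 94, 6 higher and 3 lower, beside 7.83% of all probe sets (3.99% higher and 3.83% lower) and 21.7% of the bright genes (12.6% higher and 9.17% lower). Of the 74 bright respiratory chain genes 6 were higher and 3 lower (4.05%), a smaller share than among the bright genes of the array, and this difference was not tested. The split was 6 higher and 5 lower after quantile scaling, 6 and 8 after cyclic loess and 6 and 9 after centring on bright probe sets. The lower genes were Sdhd, Cox5a and Ndufab1 (-0.26, SE 0.06, adjusted p = 0.0304). The higher genes were Ndufa1, Ndufv3, Cox6a1, the membrane-arm subunit Ndufb2 (0.18, SE 0.03, adjusted p = 0.0123), Ndufa13 (0.16, SE 0.04, adjusted p = 0.0456) and Sdhaf2, which helps to insert the flavin into Sdha. Sdhaf2 read 10.50, 10.57, 10.47, 10.50 and 10.51 in control and 10.72, 10.69, 10.66, 10.64 and 10.67 in MEKi tumours, without overlap (0.17, SE 0.02, adjusted p = 0.00619), while in MEKi/CD40 tumours it was not called (0.09, adjusted p = 0.229). Of the 38 genes lower in MEKi/CD40 tumours, 36 also had a MEKi difference below 0, from the same control tumours. With the adipocyte score as a covariate MEKi called 26 genes and MEKi/CD40 called 16 against control. Within the low or the high series MEKi called none, and it called 5, 5 and 4 without MEKi 1, control 1 or control 3.

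The next comparisons asked whether the combination differed from each agent alone. Against anti-CD40 tumours, MEKi/CD40 tumours were lower for 37 of the 94 genes and higher for 3, beside 11.6% of all probe sets called (7.19% lower and 4.42% higher) and 31.5% of the bright genes (21.7% lower and 9.76% higher), and these groups lie in the same number series. The split was 27 lower and 6 higher after cyclic loess. After centring it was 42 and 10, but that fit called 18686 of all probe sets higher and 4715 lower. As deposited, these numbers were 1991 and 3240, so the centred counts cannot be set beside the others. Without the 3 tumours of highest adipocyte score 6 genes were called, and 26, 21 and 22 without MEKi/CD40 1, anti-CD40 2 or anti-CD40 3 alone. The 3 higher genes were Ndufa1, Ndufv3 and Cox6a1. Against MEKi tumours, 4 genes were lower and none was higher, beside 2.5% of all probe sets (1.77% lower and 0.737% higher) and 5.73% of the bright genes (4.85% lower and 0.874% higher). These 4 were Atp5d (-0.33, adjusted p = 0.0391), Cox8a (-0.28, adjusted p = 0.0337), Ndufv2 (-0.34, adjusted p = 0.0361) and Sdhaf3 (-0.42, adjusted p = 0.0433), and 81 of the 94 differences were below 0. With the series blocked none of the 4 was called, and leaving out any single tumour gave 0 to 2 calls. The comparisons share the MEKi/CD40 tumours, so their results are not independent.

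A model of all 18 arrays tested whether the effect of both agents together differed from the sum of their single effects on the log2 scale. Atp5b, Atp5g2, Cox8a, Ndufv2 and Sdhaf3 were called, all with values below 0. Among all probe sets 2.64% were called in this test (1.58% lower and 1.06% higher), and among bright genes 5.13% (4.2% lower and 0.931% higher), beside 4 of the 74 bright respiratory chain genes (5.41%), a share close to that of the bright genes. Cox8a read 12.11, 11.92, 11.94, 11.95 and 12.08 in control, 12.04, 12.04, 12.08 and 11.96 in anti-CD40, 12.01, 12.04, 12.07, 12.12 and 12.05 in MEKi and 11.88, 11.77, 11.65 and 11.81 in MEKi/CD40 tumours. The MEKi/CD40 tumours lay below all others, the interaction was -0.31 (adjusted p = 0.0282), and the difference from control was -0.22 (SE 0.06, adjusted p = 0.0476). Atp5g2 read 12.98, 12.62, 12.87, 12.86 and 12.90 in control, 12.90, 12.99, 12.90 and 12.93 in anti-CD40, 12.76, 12.87, 12.80, 12.96 and 12.85 in MEKi and 12.59, 12.36, 12.36 and 12.64 in MEKi/CD40 tumours. Its highest MEKi/CD40 tumour overlapped the lowest control, and the interaction was -0.44 (adjusted p = 0.036). The interaction values were -0.35 for Ndufv2 (adjusted p = 0.0443), -0.37 for Sdhaf3 (adjusted p = 0.0472) and -0.29 for Atp5b (adjusted p = 0.0375). With the series blocked 3 genes were called, after cyclic loess 0 and after centring 1. None was called without MEKi 4, control 3 or any of anti-CD40 1, 2 and 3, and up to 7 were without another single tumour. In the comparison with control, the series block ended the call for Cox8a (-0.24, adjusted p = 0.158), Atp5g2 (-0.31, adjusted p = 0.222) and Sdhaf3 (-0.42, adjusted p = 0.0713).

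**Figure D4:**
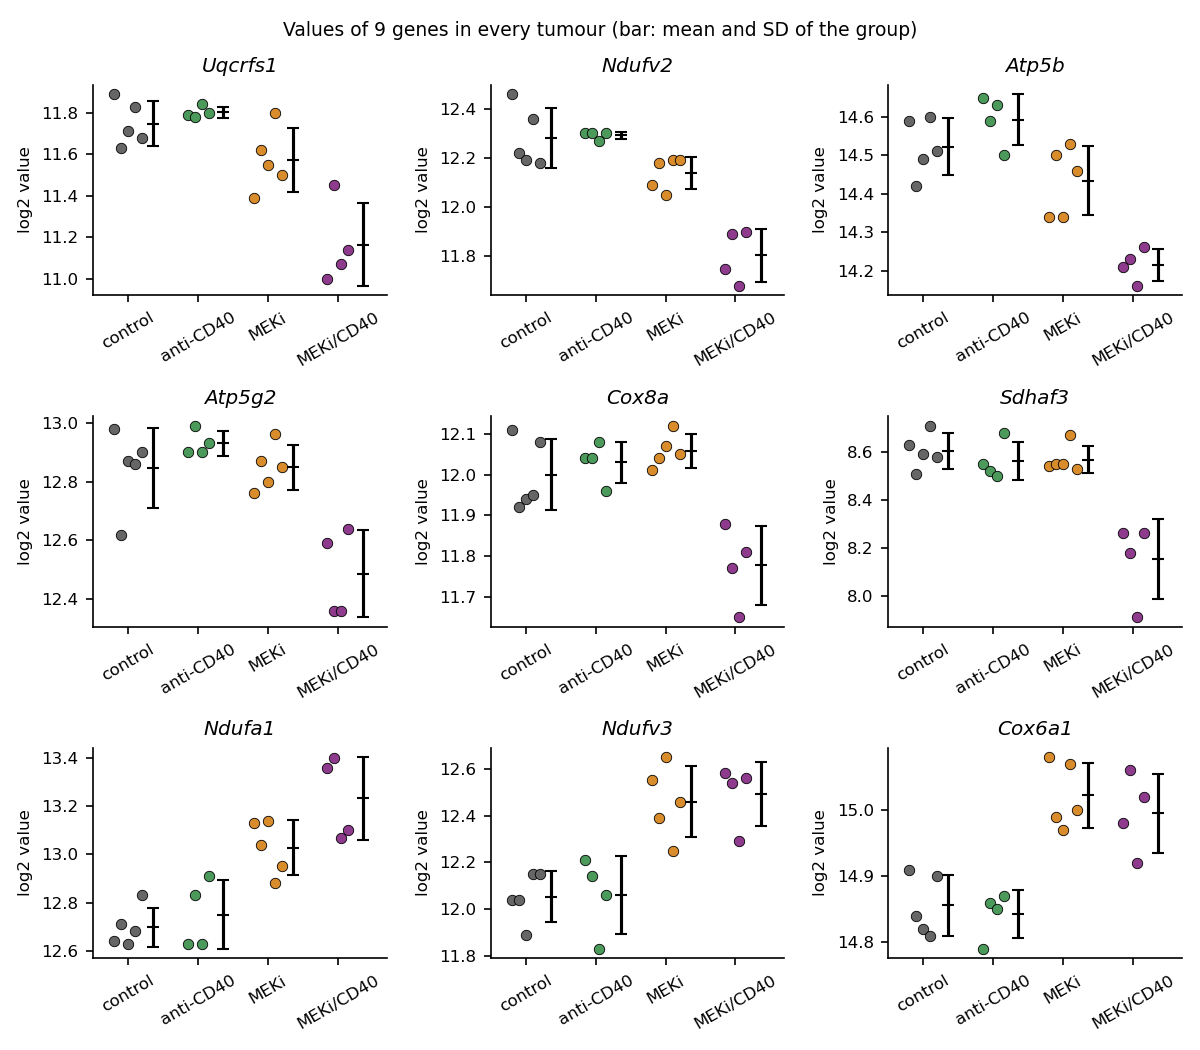
Log2 signal (vertical axes, 1 panel per gene) of 9 respiratory chain genes in every tumour of the 4 groups (horizontal axis), with the group mean and SD. Uqcrfs1, Ndufv2, Atp5b, Atp5g2, Cox8a and Sdhaf3 have their lowest group mean in MEKi/CD40 tumours, and Ndufa1, Ndufv3 and Cox6a1 have higher means than control in both groups that received the inhibitor.

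Promoter sequences were compared because the nuclear genes are read through shared transcription factors. RefSeq promoters (GRCm38.p6, 250 bases before to 50 after the start) were matched for 78 of the 94 genes and searched on both strands for the 10-base NRF1 motif, CCGGAAG (ETS factors such as GABPA), AAGATGGC (YY1) and TCAAGGTCA (ESRRA). The promoters of 4 genes of the interaction or of the genes that rose are shown, with matches in capitals, because they hold the motifs in different numbers and combinations. Cox8a (chr19:7217567-7217866, minus strand) holds 2 ETS matches. Sdhaf3 (chr6:6955768-6956067, plus strand) holds 1 ETS and 1 NRF1 match. Atp5g2 (chr15:102670998-102671297, minus strand) holds 1 NRF1 match, and Cox6a1 (chr5:115348909-115349208, minus strand) holds 2 NRF1 and 1 ETS match.
Cox8a: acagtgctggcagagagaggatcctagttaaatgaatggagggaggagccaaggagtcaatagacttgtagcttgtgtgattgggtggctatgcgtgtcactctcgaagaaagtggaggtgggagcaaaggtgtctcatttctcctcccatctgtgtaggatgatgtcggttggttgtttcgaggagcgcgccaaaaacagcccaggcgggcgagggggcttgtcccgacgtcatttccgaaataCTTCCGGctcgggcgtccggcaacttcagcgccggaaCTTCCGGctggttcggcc
Sdhaf3: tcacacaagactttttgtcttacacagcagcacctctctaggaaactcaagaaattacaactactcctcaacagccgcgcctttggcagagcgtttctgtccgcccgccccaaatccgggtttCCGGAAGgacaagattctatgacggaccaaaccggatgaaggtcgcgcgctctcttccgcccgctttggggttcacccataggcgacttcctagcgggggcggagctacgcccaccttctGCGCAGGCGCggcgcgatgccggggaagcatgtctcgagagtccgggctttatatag
Atp5g2: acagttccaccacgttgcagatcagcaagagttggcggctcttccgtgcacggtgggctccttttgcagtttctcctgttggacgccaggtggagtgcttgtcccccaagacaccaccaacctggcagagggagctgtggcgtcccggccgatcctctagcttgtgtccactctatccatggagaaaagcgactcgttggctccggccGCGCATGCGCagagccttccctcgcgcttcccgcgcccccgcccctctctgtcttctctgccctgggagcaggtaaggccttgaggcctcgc
Cox6a1: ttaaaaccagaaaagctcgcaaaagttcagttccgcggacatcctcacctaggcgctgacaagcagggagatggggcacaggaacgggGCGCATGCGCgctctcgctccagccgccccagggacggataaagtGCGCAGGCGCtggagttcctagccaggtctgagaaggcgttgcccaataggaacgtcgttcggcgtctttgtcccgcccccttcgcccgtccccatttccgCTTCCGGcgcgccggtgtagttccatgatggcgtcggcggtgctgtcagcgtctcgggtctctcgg

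The NRF1 motif was found in 23.1% of the 78 promoters and in 4.78% of the promoters of all 27025 genes in the RefSeq table. For the ETS motif the shares were 26.9% and 9.12%, for YY1 11.5% and 2.88%, and for ESRRA 2.56% and 0.407%. Among the genes lower in MEKi/CD40 tumours, 9 of 34 promoters held the NRF1 and 6 of 34 the ETS motif, and among the genes not called these were 8 of 41 and 14 of 41. Of the 3 genes that rose, Cox6a1 held both and Ndufa1 and Ndufv3 held none of the 4 motifs in this window. Uqcrfs1, Ndufv2 and Atp5b, which were lower, also held none. Over all promoters searched, 1 ETS match overlapped a match of another motif. The matches are letters in a window and describe the sequence only.

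Genes outside the rule that serve the same chain were counted from fixed lists in the MEKi/CD40 against control comparison, in which 9.37% of all probe sets and 26.4% of the bright genes were lower. Of 7 genes of cytochrome c and complex III, 3 were lower: Cycs, cytochrome c itself (-0.55, adjusted p = 0.00247), Cyc1, the cytochrome c1 of complex III (-0.42, adjusted p = 0.0233), and the assembly factor Uqcc1 (-0.43, adjusted p = 0.0275). Of 11 further complex I assembly factors 3 were lower (27.3%) and none was higher. Of 20 complex IV assembly genes 4 were lower (20%), so in both lists the share was near or below that of the bright genes. Among the 4 were Cox10, which makes heme for the complex (-0.99, adjusted p = 0.0258), and Lrpprc, which stabilises mitochondrial mRNA (-0.82, adjusted p = 0.00173). The 3 higher ones in that list were Cox19, Higd1a and Pet100 (0.36, 0.57 and 0.34). Of 4 genes of ATP synthase assembly and inhibition 3 were lower: Atpaf2 (-0.64), Tmem70 (-0.41) and Atpif1, the inhibitory factor (-0.48). ND5, a complex I subunit encoded in mitochondrial DNA and the only such gene with a probe set here, was higher (0.35, SE 0.07, adjusted p = 0.0155).

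Several regulators of mitochondrial gene expression were also lower. Nrf1, the factor whose motif was searched, differed by -0.93 in MEKi/CD40 (SE 0.09, adjusted p = 0.00133) and by -0.38 in MEKi tumours (SE 0.07, adjusted p = 0.0195). For the MEKi/CD40 counts of this paragraph, the shares lower against control were 9.37% of all probe sets and 26.4% of the bright genes. Of the 19 genes in this list 9 were lower and Hif1a, the oxygen-responsive factor, was higher (0.44, adjusted p = 0.00772). The lower genes included Tfam, which packages and transcribes mitochondrial DNA (-0.36, adjusted p = 0.00417), Polg2, a subunit of its polymerase (-0.83, adjusted p = 0.0045), Yy1 (-0.27, adjusted p = 0.00525) and Myc (-0.60, adjusted p = 0.00635). Gabpa and Esrra were not called (-0.19 and -0.12), and the coactivator Ppargc1a was near the bottom of the scale. The mitochondrial ribosome, which translates the subunits encoded in mitochondrial DNA, had 47 of 76 genes lower and none higher (median log2 difference -0.39). A joint list of the citric acid cycle and of pyruvate entry into it had 9 of 20 genes lower and Ogdh higher. In MEKi tumours 9 of the 76 ribosomal genes (11.8%) and 4 of the 20 genes of that joint list (20%) were lower. The shares lower in MEKi tumours were 3.83% of all probe sets and 9.17% of the bright genes. Of 18 carriers, uncouplers and enzymes of reactive oxygen, 8 were lower in MEKi/CD40 tumours, including the ADP/ATP carriers Slc25a4 and Slc25a5 (-0.26 and -0.36), and Aox1, an aldehyde oxidase, was higher (1.51, adjusted p = 0.0089).

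Isoforms known from muscle and brown fat varied between single tumours. Cox8b, typical of heart, skeletal muscle and brown fat, was 9.36 in MEKi/CD40 2, the tumour with the highest adipocyte score, 2.89 in MEKi/CD40 4, 2.26 in MEKi 5 and 2.16, the lowest value of the array, in the other 15. In MEKi/CD40 2 the brown-fat gene Cidea was 6.76, while Ucp1, which defines brown fat, was 2.17 there and in every other tumour. Elovl3 and Ppargc1a stayed below 3 in every tumour. Dio2 was the 1 brown-fat marker of 6 called in MEKi/CD40 against control tumours (log2 difference 3.48). It was 3.29 to 5.12 in control, 3.57 to 5.52 in anti-CD40, 4.78 to 7.95 in MEKi and 6.98 to 8.20 in MEKi/CD40 tumours. Cox7a1 was also highest in MEKi/CD40 2, at 5.50, against 2.98 to 4.64 in the others. Ndufa4l2, an isoform known from hypoxic cells, was at 2.16 in 17 tumours and at 4.47 in MEKi/CD40 3. Cox6a2, the muscle form of subunit 6a, lay between 5.97 and 8.98, with overlapping groups. The MEKi/CD40 differences from control were 1.98 for Cox8b, 0.36 for Cox7a1, 0.58 for Ndufa4l2 and 1.13 for Cox6a2, and none was called (adjusted p = 0.571, 0.767, 0.601 and 0.164).

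**Figure D5:**
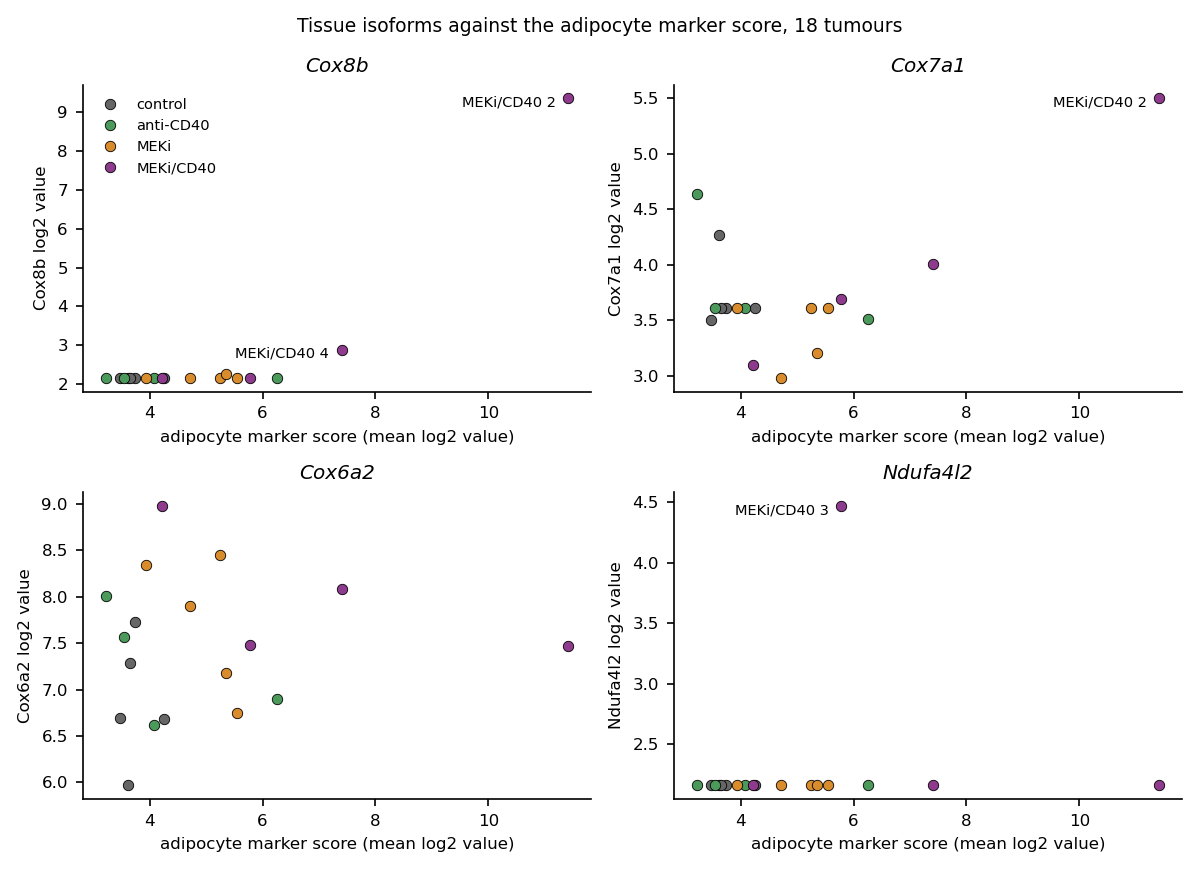
Log2 signal of Cox8b, Cox7a1, Cox6a2 and Ndufa4l2 (vertical axes, 1 panel each) against the adipocyte score, the mean log2 value of 9 adipocyte markers (horizontal axis), in 18 tumours coloured by group. MEKi/CD40 2, with a score of 11.41, holds the highest Cox8b (9.36) and Cox7a1 (5.50) values.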

How the data were processed

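RNA from pieces of 18 MC38 tumours was measured on Affymetrix mouse arrays, 1 per mouse. Per the submitters' processing notes the authors used RMA, and they deposited 1 log2 value per probe set and array. No software version was found. The values ran from 2.16 to 16.34 and 34.4% were at the lowest value, so differences near it are not exact, and neither background correction nor summarisation was redone. Of 45101 probe sets, 64 controls were set aside and 45037 tested without a filter on signal. Genes were named through the platform annotation, and all 94 members were matched to RefSeq.

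Groups were compared in pairs with limma 3.58.1 in R 4.3.3, each fit holding the tumours of its groups, and all 18 arrays entered the 2-by-2 interaction model. P-values were adjusted with the Benjamini-Hochberg method over the whole set of 45037, with calls at an adjusted p under 0.05. They measure the spread between mice, and the number of arrays limits the precision. SE is that of the model and SD that of the tumours. The script was tested on simulated data. Promoters and summaries were computed in Python 3.11.15 and figures drawn with matplotlib 3.10.9.

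The genes and lists were chosen with earlier results of these data known. The text names fixed subunits of each complex, the 3 members with the smallest p per complex, direction and comparison, those called in the interaction and any called at 2-fold or more; where a class is listed in full, its other members are named too. Alternatives were other scalings, a trend or shared fit, a filter on values below 5, the mean over a gene's probe sets, the number series or replicate number as a block, tissue scores as covariates, and fits without single tumours or the 3 tumours richest in adipocyte markers.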

Additional observations from a re-analysis of the deposited data

Results flagged for a closer look

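The check for outlying tumours flags about 1 in 20 groups of continuous, normally distributed values. The values here are rounded and some tie at the lowest value, so that rate does not apply to them. Among 196 groups checked over 49 genes and scores, 16 held a tumour set far apart from the others of its group (8.16%). In the complex scores these were the complex II mean in anti-CD40 1 (11.518, with the others at 11.615 to 11.625) and the complex IV mean in MEKi 4 (13.094, with the others at 12.952 to 12.989). Among subunits of control tumours they were Atp5g1 in control 5 (12.19), Cox4i2 in control 1 (2.61) and Cox7a1 in control 2 (4.27). In anti-CD40 tumours they were Atp5o (12.41), Cox4i1 (14.16) and Cox7a1 (4.64) in tumour 1 and Ndufv2 in tumour 3 (12.27). In MEKi tumours they were Cox4i2 (2.65) and Cox8b (2.26) in tumour 5 and Sdhaf3 in tumour 4 (8.67). In MEKi/CD40 tumours they were Cox8b (9.36) and Sdhd (11.01) in tumour 2, and Ndufa4l2 (4.47) and Ndufv3 (12.29) in tumour 3. The interaction term of the limma model, the difference in the inhibitor's effect with and without anti-CD40, was called for Atp5b (-0.29), Atp5g2 (-0.44), Cox8a (-0.31), Ndufv2 (-0.35) and Sdhaf3 (-0.37). After cyclic loess 0 members were called in it. The share called among bright members (5.41%) was close to that of all bright genes (5.13%).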

How the results depend on the processing

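In the MEKi/CD40 against control comparison all 41 called genes kept their sign in all 13 other fits apart from those without single tumours. These fits reuse the tumours in which the genes were chosen, so kept signs are no separate support. Counts of members called moved as follows. MEKi/CD40 against control (41 called) gave 25 with the series blocked, 0 within low-series tumours, 25 without the 3 highest adipocyte scores, 16 with the adipocyte score as a covariate, and 30 to 37 without single tumours. MEKi against control (9) gave 14 with the filter on dim probe sets, cyclic loess or the mean over probe sets, 15 centred on bright probe sets, 0 within either series, 26 with the adipocyte covariate, and 4 to 10 without single tumours. MEKi/CD40 against MEKi (4) gave 19 in 1 fit of all 18 arrays, 9 with the dim filter, 0 with the series blocked and within low-series tumours, 1 without the highest adipocyte scores and with the adipocyte covariate, 2 with the muscle covariate, and 0 to 2 without single tumours. MEKi/CD40 against anti-CD40 (40) gave 6 without the highest adipocyte scores, 23 with the adipocyte covariate, and 21 to 39 without single tumours. The interaction (5) gave 8 with the dim filter, 0 with loess, 1 centred, 3 with the mean over probe sets or the series block, 0 within the low series, and 0 to 7 without single tumours. The mean of complex IV subunits moved from -0.21 to -0.11 without Cox7c and to -0.09 with Cox6a2 and Cox7a2l, which follows from the genes in the mean. For the counts the cause was not tested.

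The replicate block gave 1, 0, 0 and 6 called members for MEKi/CD40 against control, MEKi against control, MEKi/CD40 against MEKi and MEKi/CD40 against anti-CD40, and 1 in the interaction. Deviations of same-numbered tumours had correlations of -0.377 to 0.279 (6 of 25 above 0.1), and those of other-numbered tumours -0.454 to 0.482. With so few tumours per group, these values cannot decide whether the numbers pair the tumours. The split of MEKi/CD40 calls against control was 3 higher and 38 lower as deposited and 8 and 28 with loess, and that of MEKi was 6 and 3 as deposited, 6 and 5 with quantile normalization, 6 and 8 with loess and 6 and 9 centred. Anti-CD40 against control gave 0 in every fit. Series fits were not run where every tumour was of the low series, nor the fit without adipocyte-rich tumours where it left out none. For single genes 3648 values kept their side of the threshold, 389 lost and 58 gained the call, and 0 reversed. The number of tumours and the lowest array value limit what could be detected.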
